A study of Homo sapiens with 2 samples.

Results

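The cytokine, chemokine and cytokine receptor genes of SNK6 cells were compared between romidepsin alone and romidepsin with sildenafil. Members were taken by gene symbol from the platform annotation: interleukins and their receptors (IL followed by a digit), the CC, CXC, XC and CX3C chemokines and their receptors, the numbered TNF ligand and receptor families, and CSF1, CSF2, TNF, LTA and LTB. CXCL10, ILF and antisense genes were left out by the same rule, and divergent and readthrough genes were left out in addition. It found 107 of 14884 named genes. Of the TNF family it found TNF alone. The numbered TNF ligands and TNF receptors, LTA, LTB and CSF2 are not analysed here, so the set holds no TNF receptor.

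SNK6 is a human NK/T-cell lymphoma line that was grown here in medium with 500 U/ml interleukin-2, which both groups shared. One group received romidepsin, which blocks class I histone deacetylases, for 72 h (1 array), and the other received romidepsin together with sildenafil, an inhibitor of the cGMP-degrading phosphodiesterase PDE5, for 72 h (1 array). The titles shorten the drug names, and the added drug was taken to be sildenafil, the only other agent in the protocol. Neither dose is stated in the labels, and cells without romidepsin were not analysed here. With 1 array a group, no difference could be tested, no value has a replicate error, and treatment and array batch cannot be told apart.

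Cytokines are secreted proteins that immune cells use to signal to each other. Interleukins act mostly through paired receptor chains that engage JAK kinases and STAT transcription factors, whereas the receptors of the interleukin-1 and interleukin-17 families work through adaptor proteins that lead to NF-kappaB. Chemokines are small secreted attractants that bind G protein-coupled receptors and direct cell migration. Malignant NK and T cells carry many of these receptors, and NK lymphoma lines are often grown with interleukin-2, whose receptor shares the common gamma chain with those of interleukins 4, 7, 9, 15 and 21.

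Values are log2 signals of probe sets, and each difference subtracts the value without sildenafil from the value with it. Genes were kept where at least 1 of the arrays read 3.91 (the median of the whole table) or more. The kept genes comprised 53 members, and the other 54 lay below this level on both arrays. Signals of different probe sets were not compared as amounts of RNA. In whole cultures, fewer cells that express a gene and less RNA per cell cannot be told apart.

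Of the 53 kept members, 2 were at least 1.5-fold higher with sildenafil, IL25 and CCL4, and none was at least 1.5-fold lower. IL25 passed the filter only on the array where it is higher, and with both arrays required to reach the filter level CCL4 alone of 47 members remained. Of the 9443 genes kept under that stricter filter, 0.487% were at least 1.5-fold higher and 0.635% at least 1.5-fold lower. Among all 10081 kept genes 1.02% were at least 1.5-fold higher and 0.972% at least 1.5-fold lower, so a count of 2 among 53 (3.77%) rests on very few genes. Both members had a mean signal below the median of all kept genes. In that range 2 of 34 members were at least 1.5-fold higher, as were 1.94% of all 5040 kept genes. The median difference of the kept members was 0.01, against -0.01 over all kept genes. On the array with sildenafil 29 members were higher and 24 lower, compared with 4757 and 5282 of all kept genes. With both arrays required to reach the filter level, 25 members were higher and 22 lower. For 35 of the 53 (66.0%) the arrays differed by at most 0.2, compared with 70.7% of all kept genes. Both genes past 1.5-fold fell just short of it when the trend of differences with signal was removed by lowess centring (CCL4 0.581 and IL25 0.573, against a threshold of 0.585). The plot of signals on each array shows the kept members side by side.

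**Figure D1:**
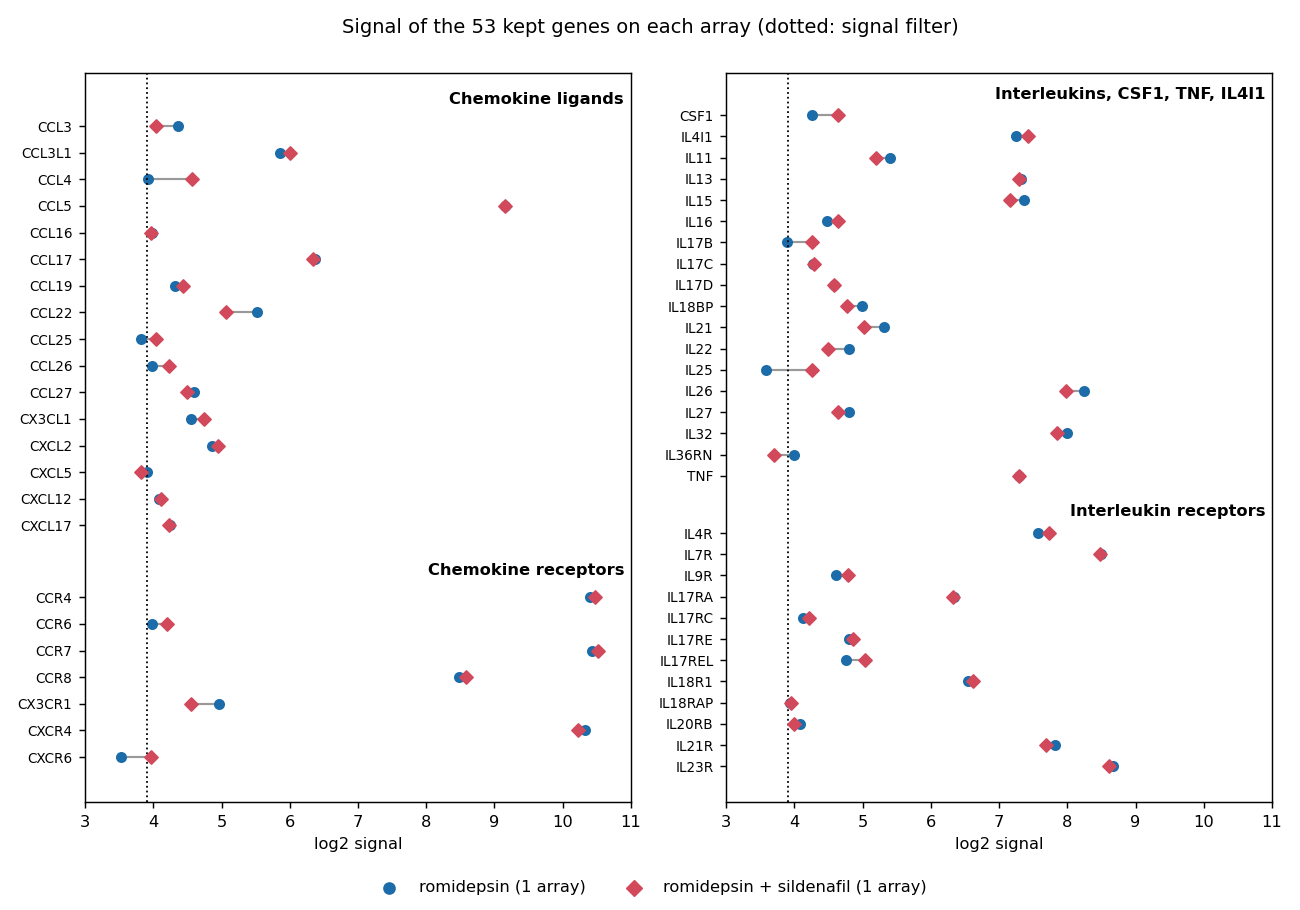
Log2 signal of the 53 kept genes on the romidepsin array (circles) and on the array with sildenafil (diamonds), 1 array each, in 4 classes. The dotted line is the signal filter at 3.91, and the widest gaps belong to IL25 and CCL4. Positions of different genes are not amounts of RNA that can be compared.

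The size of a difference went with the signal. Of the 20 kept members with the largest absolute differences, 10 were higher and 10 lower with sildenafil, and 18 had a mean signal below 5.77, the median of all kept genes. Among the 19 members at or above that signal, 18 (94.7%) were within 0.2 of equality, as were 82.3% of the 5041 kept genes in that range, and the widest was IL26. In the range below it, 17 of 34 members were within 0.2, compared with 59.2% of 5040 genes. The SD of differences over all kept genes was 0.34 in the dimmest of 10 equal groups by signal and 0.12 in the brightest. A difference beyond the SD of its own group was seen in 16 members (30.2%), 8 higher and 8 lower, and in 28.8% of all kept genes.

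**Figure D2:**
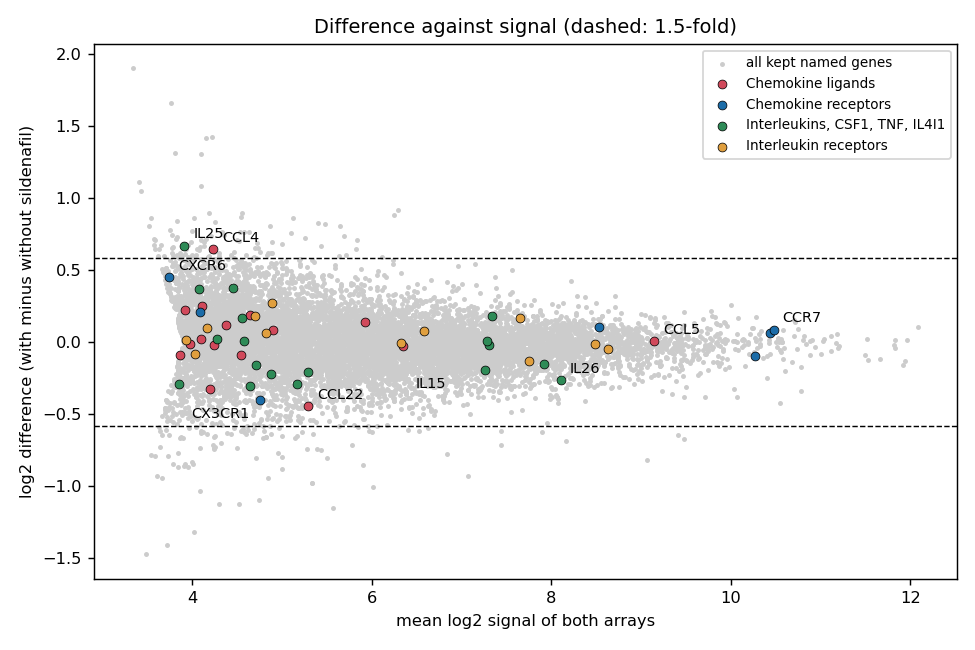
Log2 difference (with minus without sildenafil) against the mean log2 signal of both arrays, for all 10081 kept genes (grey) and the 53 members (coloured by class). Dashed lines mark 1.5-fold. Of the members only IL25 and CCL4 lie beyond them, both at low signal, while CCR7 and CCL5 at high signal lie near 0.

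The CC chemokines included both a gene past 1.5-fold and the lowest difference of the kept set. Of 22 named CC chemokines 11 were kept, with a median of 0.00, 6 higher and 5 lower. CCL4, which encodes MIP-1beta, an attractant for monocytes and lymphocytes, read 3.92 without and 4.56 with sildenafil. Its difference of 0.64 (1.56-fold) stood against an SD of 0.26 among genes of like signal, where 19 of 1008 genes were at least 1.5-fold higher. CCL3, which encodes the related MIP-1alpha and lies beside CCL4 in the genome, read 4.36 without and 4.03 with (-0.33). Its near-identical copy CCL3L1 read 5.86 without and 6.0 with (0.14). The human genome also carries near-identical copies of CCL4, so the probe sets of these genes may each take up RNA of more than 1 copy. CCL5, the T and NK cell product RANTES, read 9.15 on both arrays, a difference of 0.00.

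CCL22 and CCL17 are ligands of the receptor CCR4, which marks helper 2 and regulatory T cells and is found on several T-cell lymphomas. CCL22 read 5.51 without and 5.07 with sildenafil, a difference of -0.45 (1.36-fold lower) against an SD of 0.22 among genes of like signal. CCL17 read 6.36 without and 6.34 with (-0.03). Their receptor CCR4 read 10.41 without and 10.47 with (0.06). Of this axis, then, the ligand CCL22 alone was more than 0.1 from equality in the values as deposited. With quantile normalization CCR4 was at 0.13. The promoter windows of CCL22 and CCR4 are printed because this ligand and its receptor hold the lowest difference of the kept members and a difference near 0 at high signal. The window of IL26 belongs to the widest difference among members of high signal. Each runs from 250 bases before to 50 bases after the annotated start, on the gene's strand, from RefSeq's GRCh38.p14 annotation. Capitals mark matches on either strand to any of 4 motifs. They are TATAAA, the AP-1 motif written TGANTCA, the core of the cyclic AMP response element written TGACG, and the kappaB consensus. TATAAA has the letters of a TATA box but was matched anywhere in the window.
CCL22 (chr16:57358533-57358832, plus strand): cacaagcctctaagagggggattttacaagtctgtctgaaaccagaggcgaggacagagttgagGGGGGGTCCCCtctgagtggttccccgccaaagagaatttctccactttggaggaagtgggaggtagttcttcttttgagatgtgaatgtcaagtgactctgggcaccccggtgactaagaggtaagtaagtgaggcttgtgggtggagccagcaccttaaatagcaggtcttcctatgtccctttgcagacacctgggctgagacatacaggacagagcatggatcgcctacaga
CCR4 (chr3:32951394-32951693, plus strand): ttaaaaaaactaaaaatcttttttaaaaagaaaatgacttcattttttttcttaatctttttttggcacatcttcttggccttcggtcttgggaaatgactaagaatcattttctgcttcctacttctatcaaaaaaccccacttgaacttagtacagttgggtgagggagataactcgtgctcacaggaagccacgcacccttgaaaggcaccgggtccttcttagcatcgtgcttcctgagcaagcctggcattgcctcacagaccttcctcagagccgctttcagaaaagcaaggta
IL26 (chr12:68225761-68226060, minus strand): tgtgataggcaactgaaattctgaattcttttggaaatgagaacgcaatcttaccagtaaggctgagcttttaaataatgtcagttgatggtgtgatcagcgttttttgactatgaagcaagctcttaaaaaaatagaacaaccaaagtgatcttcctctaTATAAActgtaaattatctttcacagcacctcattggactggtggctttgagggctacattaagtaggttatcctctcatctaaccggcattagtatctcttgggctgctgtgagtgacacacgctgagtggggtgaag

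The CCL22 window held 2 overlapping matches to the kappaB consensus, the first starting 186 bases before the start site. The IL26 window held 1 TATAAA, which starts 89 bases before it, and the CCR4 window none of the 4 motifs. The kappaB consensus occurred in 11.3% of all 35116 promoter windows of this length and TATAAA in 11.5%. Of the members, 79 had an entry in the promoter table, 37 of them kept, and several start sites of a gene give overlapping windows. Among the 62 windows of kept members the kappaB consensus occurred in 16.1%, TATAAA in 11.3%, TGANTCA in 12.9% and TGACG in 27.4%, against 7.71% and 24.6% of all windows for the last pair. Among the 120 windows of all matched members, which include genes below the filter, the shares in the same order were 13.3%, 20.8%, 16.7% and 21.7%, so TGACG lay above its share of all windows in the kept members and below it here. A match describes letters in the window and is not a measured binding site.

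The other kept CC chemokines lay within 0.25 of equality. CCL26 (eotaxin-3), a ligand of the eosinophil receptor CCR3, read 3.98 without and 4.23 with (0.25). CCL25, which attracts CCR9-positive cells to the gut, read 3.82 and 4.04 (0.22) and passed the filter only on the array with sildenafil. CCL19, a ligand of CCR7 in lymph nodes, read 4.32 and 4.43 (0.11). CCL27, a skin chemokine, was at -0.09 and CCL16 at -0.02. The 11 named CC chemokines below the filter included CCL2, with 2.5 on both arrays, and CCL7, which read 2.38 without and 3.05 with. The CCL7 gap of 0.67 was as wide as that of IL25, but both readings were below the filter level.

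Of 15 named CXC, XC and CX3C chemokines 5 were kept, with differences from -0.09 to 0.19 and a median of 0.02. CX3CL1, which encodes the membrane-bound chemokine fractalkine, read 4.56 without and 4.74 with sildenafil (0.19). CXCL2, a neutrophil attractant, read 4.86 and 4.94 (0.08). CXCL5, another neutrophil attractant that passed the filter only without sildenafil, was at -0.09, CXCL12, the ligand of CXCR4, at 0.02 and CXCL17 at -0.02. The neutrophil chemokine CXCL8 (2.10 without and 2.05 with), the interferon-induced CXCL9 (2.23 and 2.12) and the NK cell chemokine XCL1 (2.51 and 2.45) were below the filter on both arrays. So were CXCL6 (0.51), CXCL13 (0.35), CXCL3 (0.31), XCL2 (0.26) and CXCL11 (-0.31), whose gaps were wider.

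Of the 7 kept chemokine receptors, 4 had signals above 8 on both arrays and differed little. CCR7, which guides cells to lymph nodes, read 10.44 without and 10.52 with sildenafil (0.09). CXCR4, the receptor of CXCL12, read 10.33 and 10.23 (-0.10). CCR8, a receptor of skin-homing and regulatory T cells, read 8.49 and 8.59 (0.10). Together with CCR4, these 4 receptors lay from -0.10 to 0.10, against an SD of 0.12 among genes of like signal. With quantile normalization they lay from -0.03 (CXCR4) to 0.15 (CCR7), and with lowess centring from -0.08 (CXCR4) to 0.13 (CCR8). Of the genes for their ligands, CCL1, which binds CCR8, read 3.45 and 3.63, and CCL21, which binds CCR7 as CCL19 does, read 3.84 and 3.65, both below the filter.

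The 3 dim receptors that were kept had wider gaps and opposite directions. CXCR6, a receptor of tissue-resident lymphocytes, read 3.52 without and 3.97 with sildenafil, a difference of 0.45 against an SD of 0.34 among genes of like signal. It passed the filter on the array with sildenafil alone. CX3CR1, the fractalkine receptor of cytotoxic lymphocytes and monocytes, read 4.96 without and 4.56 with, a difference of -0.40 against an SD of 0.26. Its ligand CX3CL1 differed the other way, by 0.19. CCR6, the CCL20 receptor of interleukin-17-producing T cells, read 3.98 and 4.20 (0.21). Over all 7 kept chemokine receptors the median was 0.09, with 5 higher and 2 lower. CXCR3, a receptor of activated T and NK cells, was below the filter at 3.67 without and 3.83 with. CXCL16, the ligand of CXCR6, read 2.36 and 2.38.

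The kept cytokines that signal through the common gamma chain were both lower on the array with sildenafil. IL15, which sustains NK cells, read 7.36 without and 7.16 with, a difference of -0.20 against an SD of 0.14 among genes of like signal. IL21, which promotes NK and T cell effector function, read 5.32 and 5.03 (-0.29, SD 0.24). IL2, whose protein was supplied in the medium, read 1.38 and 1.56, IL4 read 2.04 on both arrays, and IL7 read 2.07 and 2.05. These last 3 lay below the filter. Among the receptors, IL21R read 7.82 and 7.69 (-0.13) and IL4R, shared by interleukins 4 and 13, read 7.57 and 7.74 (0.16). IL7R, the interleukin-7 receptor alpha chain, read 8.49 and 8.48 (-0.01), and IL9R read 4.61 and 4.79 (0.18). The 3 chains of the interleukin-2 receptor and IL15RA are not analysed here.

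IL26 and IL22, which are neighbours in the genome and encode cytokines of the interleukin-10 family that act on epithelial cells, were lower by similar amounts. IL26 read 8.24 without and 7.97 with sildenafil, a difference of -0.26 against an SD of 0.14 among genes of like signal. IL22 read 4.797 and 4.49 (-0.30, SD 0.26). Neither reached 1.5-fold, and the arrays do not show whether the gaps exceed the variation between cultures. IL10, an anti-inflammatory cytokine that also supports lymphoma cells, was below the filter (2.68 and 2.53), as were IL19, IL20 and IL24. The one kept receptor of this family, IL20RB, read 4.08 and 3.99 (-0.09).

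The 4 kept interleukin-17 family cytokines read higher with sildenafil, by 0.01 to 0.67, but IL25 and IL17B passed the filter only on that array. IL25, also called interleukin-17E and known for driving type 2 responses, read 3.58 without and 4.25 with. Its difference of 0.67 (1.59-fold) stood against an SD of 0.34 in the dimmest of the 10 groups, where 48 of 1008 genes were at least 1.5-fold higher. Without sildenafil it lay below the filter level, so it was kept through its brighter array alone. IL17B read 3.89 and 4.26 (0.37) and was kept in the same way, while IL17C (0.02) and IL17D (0.01) differed little. With quantile normalization IL17C was at -0.001 and IL17D at -0.004, and with lowess centring each was at -0.04. The T cell cytokine IL17A (2.599 and 2.70) and its relative IL17F (2.92 and 3.23) were below the filter. Of the receptors, the shared chain IL17RA read 6.33 on both arrays (0.00) and IL17REL, a receptor-like gene, read 4.76 and 5.03 (0.27). IL17RC was at 0.09, and IL17RE, the partner chain for interleukin-17C, at 0.06.

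Among the interleukin-12 and interleukin-6 families, IL23R, the specific chain of the interleukin-23 receptor, read 8.66 without and 8.61 with sildenafil (-0.05). The cytokines IL11 (5.40 and 5.19, -0.21) and IL27 (4.798 and 4.63, -0.16) were both lower. In the interleukin-1 family, IL18R1 and IL18RAP form the interleukin-18 receptor, through which NK cells are induced to make interferon-gamma. IL18R1 read 6.54 and 6.62 (0.08) and IL18RAP read 3.93 and 3.94 (0.01). IL18BP, a secreted inhibitor of interleukin-18, read 4.99 and 4.76 (-0.23), and IL36RN, the interleukin-36 receptor antagonist, read 4.0 and 3.70 (-0.29) and passed the filter only without sildenafil. IL18 itself was below the filter, with 2.77 without and 2.24 with. IL37, an anti-inflammatory relative, was also below it on both arrays, with 2.29 without and 2.89 with (0.60).

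The remaining kept genes included TNF, IL13, IL32, CSF1, IL16 and IL4I1. TNF, the founding member of its family, had 8 probe sets. Of these, 7 held the same values, 7.29 on both arrays (0.00), and are not separate measurements, and the other read 7.16 and 7.24 (0.08). IL13, a type 2 cytokine, read 7.32 without and 7.30 with (-0.02), and its neighbour IL4 was below the filter. IL32, an inflammatory product of NK and T cells, read 8.0 and 7.85 (-0.15, SD 0.14). CSF1, the growth factor of macrophages, read 4.26 and 4.64 (0.38, SD 0.26). IL16, a T cell attractant, was at 0.17. IL4I1, which matched by symbol but encodes an enzyme that degrades amino acids, read 7.25 and 7.43 (0.18, SD 0.14).

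By role, the kept interleukin receptors lay in a narrower range than the interleukin ligands. The 12 interleukin receptors ran from -0.13 (IL21R) to 0.27 (IL17REL) with a median of 0.04, and 11 of them were within 0.2. The 17 interleukin ligands and other IL or CSF symbols ran from -0.30 (IL22) to 0.67 (IL25) with a median of -0.15. Of these 7 were higher and 10 lower, and 8 were within 0.2. The 16 chemokine ligands ran from -0.45 to 0.64 with a median of 0.01. Of the 5 interleukin ligands and other IL symbols at or above the median signal, IL26, IL15, IL32 and IL13 were lower and IL4I1 higher. In that range 3024 of all 5041 kept genes were lower, with a median of -0.03. IL13 was at -0.02, but at 0.03 with quantile normalization and 0.02 with lowess centring. The difference between these roles was not tested, and 6 of the 12 receptors but 5 of the 17 ligands had a mean signal of at least 5.77. Among the interleukin ligands IL25, IL17B and IL36RN passed the filter on 1 array only, whereas each of the 12 kept interleukin receptors reached it on both.

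The 54 members below the filter read between 1.38 and 3.87 and are given as readings only. Of these, 30 read higher and 23 lower with sildenafil and CCL2 was equal to the last digit, with differences from -0.53 (IL18) to 0.67 (CCL7). They include well-known products of activated lymphocytes and monocytes, such as IL2, IL4, IL10, IL17A, CCL2 and CXCL8, and receptors of myeloid cells, such as CCR1 (2.65 without and 2.63 with), CCR2 (2.72 and 2.70) and CXCR1 (3.0 and 2.87). IL33, an alarm signal released by damaged epithelium, read 1.83 and 1.93. Because no background level is known, readings this low do not show whether the gene was expressed.

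Many members lie next to each other on chromosomes, and neighbours differed both in the same and in opposite directions. In the RefSeq annotation of GRCh38.p14, 59 of the 107 members fell into 20 groups with at most 5 other protein-coding genes between them. In the group of CCL5, CCL16, CCL23, CCL18, CCL3 and CCL4, the differences ran from -0.34 (CCL23, below the filter) to 0.64 (CCL4). CCL22, CX3CL1 and CCL17 form another, with -0.45, 0.19 and -0.03. IL4R (0.16) and IL21R (-0.13) are also neighbours and differed in opposite directions. CX3CR1 (-0.40) and CCR8 (0.10) did so too. IL26 and IL22 were both lower, and IL17RE and IL17RC both slightly higher.

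**Figure D3:**
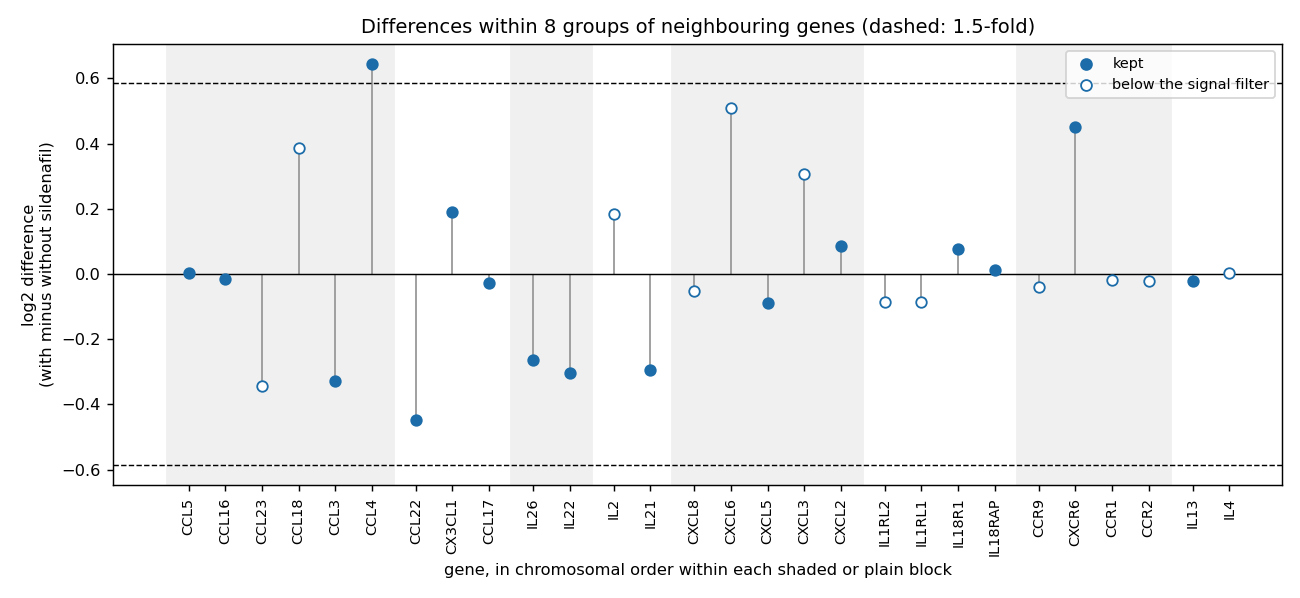
Log2 difference (with minus without sildenafil) of members in 8 of the groups of neighbouring genes, in chromosomal order within each block. Filled circles are kept genes, open circles lie below the signal filter, and dashed lines mark 1.5-fold. In the CCL5 to CCL4 block the differences point both ways, whereas IL26 and IL22 are both lower.

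Genes of cytokine, chemokine and TNF family pathways were read in 5 lists, and some of them act with TNF receptors or other receptors outside the set. Of these genes 63 were kept and 0 differed by 1.5-fold. That is near the share over all kept genes, of which 1.02% were higher and 0.972% lower by that much, and the lists held 44 genes at or above the median signal, where 0.0992% were higher and 0.377% lower. Of 29 listed TNF receptor adaptors and NF-kappaB genes 19 were among the named genes, and all 19 were kept. Their median was -0.10, with 5 higher and 14 lower. Of these 17 were at or above the median signal, a range in which 3024 of all 5041 kept genes were lower and the median was -0.03. TRADD, the adaptor of the TNF receptor, read 6.70 without and 7.01 with (0.31), and BIRC2, a ubiquitin ligase of that receptor complex, read 7.38 and 7.07 (-0.31). Of 12 listed TNF family genes with other symbols 7 were among the named genes, and all 7 were kept, with a median of -0.03. Their widest differences were NGFR at 0.27 and EDA2R at -0.16. Of 25 listed interleukin receptor signalling genes 18 were among the named genes, and all 18 were kept. Their median was 0.02, with 10 higher and 8 lower. SOCS1, a feedback inhibitor of JAK kinases, was at -0.26 and the kinase PIM3 at 0.25. Of 24 listed chemokine receptor signalling genes 11 were among the named genes. The 9 that were kept had a median of 0.04, with 6 higher and 3 lower. Of these RGS16, a regulator of G protein signalling, was at -0.15 and the receptor XCR1 at 0.15. Of 22 other listed cytokines and cytokine receptors 17 were among the named genes. The 10 that were kept had a median of -0.06, with CSF3 at 0.33 and LIF at 0.28. LIF passed the filter only on the array with sildenafil, and with no signal filter the median of this list was 0.10, on the other side of 0.

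**Figure D4:**
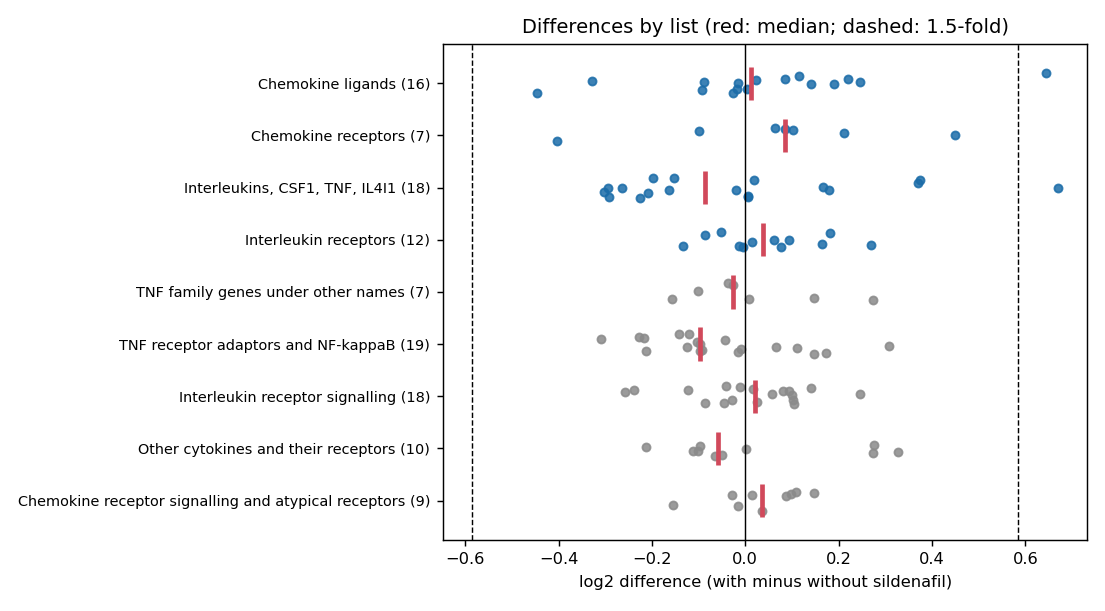
Log2 difference (with minus without sildenafil) of each kept gene in the 4 classes of members (blue) and in 5 lists of pathway genes (grey), with the number of genes in brackets. Red bars are medians and dashed lines 1.5-fold. Of all the points shown, IL25 and CCL4 alone lie beyond 1.5-fold.

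Cell type markers were read on the same arrays. Of 13 named NK cell markers 12 were kept, among them NCAM1 (6.63 without and 6.54 with), PRF1 and NKG7, and EOMES was below the filter. Of the 12, 7 were higher and 5 lower with a median of 0.03, from -0.27 (NKG7) to 0.47 (TBX21). Their summed linear signal, which is set mostly by the brightest probe sets and is no amount of RNA, was 1559.6 without and 1510.3 with sildenafil. That of 7 T cell markers was 109.8 and 109.5, of 3 B cell markers 79.6 and 73.1, of 7 monocyte and macrophage markers 186 and 179.97, and of 5 fibroblast and epithelial markers 204 and 229.9. In the last list KRT18 was higher (0.34) and KRT8 (-0.30) and KRT19 (-0.26) were lower. KRT19 and the macrophage marker VSIG4 passed the filter only without sildenafil, and the NK cell marker GNLY only with it. The kept T cell markers were CD4, CD5, CD6, CD8A and CD8B, which read between 4.03 and 4.52. BLK and PAX5 were the kept B cell markers, and CD68, CSF1R, MARCO and VSIG4 the kept monocyte and macrophage markers. Of these CD68 read 6.72 without and 6.61 with sildenafil. The T cell markers CD28 and TRAT1, the B cell marker CR2 and the monocyte markers CD14, LYZ and CD163 were below the filter on both arrays. The part of these gaps in any difference above was not tested.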

How the data were processed

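Total RNA of 2 cultures of SNK6 cells was amplified with a whole-transcript kit and hybridised to 1 expression array each, per the labels' protocols. The authors deposited a table of 53617 probe sets in log2 signal. The base was taken as 2 because values reach 13.05, and natural logs of 16-bit intensities end at 11.1. How they corrected background, summarised and normalized is not given in the sources used here. When sorted, the 2 columns differed by at most 0.15, so whether a change shared by most transcripts was removed cannot be told.

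The platform annotation named 16098 probe sets, for 14884 genes. All 107 members matched RefSeq identifiers with the same symbol. The probe set with the highest mean stood for a gene. Genes with 3.91 or more on at least 1 array were kept, and called at 1.5-fold. The SD of differences came from 10 groups of kept genes by mean signal. Members and lists were chosen with earlier results of these data known. Named with full values were members past 1.5-fold, the 20 with the largest differences, the 2 widest of each role, and a fixed set; of the pathway lists, the widest 2. The number of arrays limits precision. The code was tested on simulated data. Alternatives changed the filter, normalization, probe set handling, membership and fold. Python 3.11.15, numpy 2.4.6, pandas 2.3.3 and statsmodels 0.14.6 were used.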

Additional observations from a re-analysis of the deposited data

How the results depend on the processing

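The count of members at least 1.5-fold higher, 2 in the main setting, was 4 with no signal filter (CCL7 and IL37 were added), 1 with both arrays required to reach the median (CCL4), and 0 with lowess centring and at a 2-fold threshold. Of all genes, 1.498% were at least 1.5-fold higher with no filter and 0.487% with both arrays required to reach the median. The share was 0.605% with lowess centring and 0.0893% at the 2-fold threshold. In the same order 1.048%, 0.635%, 1.28% and 0.0893% of all genes were lower, and no member was. At 1.3-fold 2 members, CCL22 and CX3CR1, were lower, and 3 were higher (CCL4, CXCR6 and IL25). Among all kept genes 4.05% were lower and 4.62% higher at that threshold. Under the other settings run (mean-signal filter, median centring, quantile normalization, mean over probe sets, single probe sets, narrower or wider membership) the higher count stayed at 2 and the lower at 0. Of all genes kept under these, 0.768% to 1.07% were higher and 0.809% to 0.972% lower. The median difference of the kept members ran from 0.00 to 0.03 over all settings. Filters and probe set rules leave the difference of a single gene as it is, apart from TNF. Of the settings that can move it, quantile normalization moved the 53 kept members by at most 0.07, lowess centring by at most 0.12 and median centring by 0.01 each. With no filter the median of the other IL symbols went from 0.17 to 0.03 and that of the other cytokines and cytokine receptors from -0.06 to 0.10. No paired analysis was possible because each group has 1 array. No replicate could be left out. Differences near the filter level are limited by signal, since no background level per probe set is known.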
